A study of Sus scrofa with 14 samples.

Results

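The question taken up here is whether early estrogen exposure altered the pig endometrium differently at day 13 and at day 15 of pseudopregnancy. The measure is the estrogen effect at day 15 (estrogen minus control) less the estrogen effect at day 13, called the treatment-by-day difference below. All 14 arrays of the series entered it. Crossbred cyclic gilts (young female pigs) aged 8 to 10 months received estrogen or, as controls, corn oil when their second estrus began and once more 24 hours later. Endometrium, the lining of the uterus, was taken after the uterus had been flushed with saline, at day 13 (4 control and 4 estrogen gilts) or day 15 (3 control and 3 estrogen gilts). Every gilt, the controls included, was pseudopregnant, so no group held conceptuses. The estrogen compound, its dose and the way pseudopregnancy was brought about are not given in the sources used here. RNA of each gilt was hybridised to its own Affymetrix porcine array, and the labels call the arrays of a group biological replicates.

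In the pig, estrogen from the conceptuses is the natural signal that maintains the corpora lutea, and it reaches the uterus shortly before attachment. Progesterone from the corpora lutea first sustains and then lowers its own receptor in the uterine epithelium, and the timing of that loss is held to set the time at which the surface can receive a conceptus. Estrogen given to pigs before this time is a known model of a uterus that is out of step with its conceptuses. The submitters describe the estrogen groups as endocrine disrupted pseudopregnancy, and day 13 to 15 as the window of attachment.

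Signals were analysed as log2(signal + 16), and all levels and differences below are on that scale, so folds of dim genes are understated. After control and dim probe sets had been set aside, 16754 of 23935 remained, with 5785 named genes among them. Arrays carry no read depth, and their number limits the precision. The tissue label fitted the markers measured: the epithelial genes KRT8, KRT18, EPCAM and CDH1 lay between 11.78 and 14.08 on every array, and the stromal genes VIM and DCN between 13.00 and 14.08. Not all arrays were alike. Replicate 1 of the day 13 controls, replicate 3 of the day 15 controls and replicate 2 of the day 15 estrogen gilts correlated less with the rest (medians of 0.922 to 0.934, against 0.950 to 0.965 for the other 11). They came from 3 of the 4 groups, so results are given with all 14 arrays and without the 3. RNA quality also differed. Without the 3 arrays, the 3' minus 5' difference of the GAPDH control probe sets, which grows as RNA degrades, was 2.55 to 2.84 in estrogen day 15 and 1.86 to 2.58 over the other 3 groups. That of actin was 1.81 to 2.33 against 1.07 to 1.72, and that of the elongation factor EF1A 0.18 to 0.24 against -0.10 to 0.10. With all 14 arrays the GAPDH difference in estrogen day 15 ran from 1.36 to 2.84. The part of RNA quality in each gene's value below was not tested; with it as a covariate limma called 0 probe sets.

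No gene passed the test for a changed estrogen effect. With all 14 arrays, 0 of 16754 probe sets (0%) had an adjusted p under 0.05 for the treatment-by-day difference (limma with Benjamini-Hochberg adjustment; lowest adjusted p 0.99). At an unadjusted p under 0.05 there were 595 probe sets (3.55%), 315 higher and 280 lower, while 838 would be 5% of those tested. Without the 3 arrays, 0 of 16754 (0%) passed again, the lowest adjusted p was 0.279, and 1070 (6.39%) had an unadjusted p under 0.05, 449 higher and 621 lower. The limma test of the estrogen effect itself called 0 probe sets at day 13 (485 at an unadjusted p under 0.05) and 0 at day 15 (642). Over all probe sets tested, the median standard error of the treatment-by-day difference was 0.38, so a 95% interval reached 0.81, or 1.75-fold, to either side. A change in the estrogen effect smaller than that could not be told from 0 for a typical probe set with this number of arrays. That interval is for 1 probe set and is not adjusted, and the adjusted test over 16754 probe sets asks for a larger change. Differences beyond it also went uncalled, so the 0 calls do not show that such changes were absent.

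Whether the effects of the 2 days pointed the same way was then described over all probe sets. The effects share no arrays. They had opposite signs in 8979 of 16754 probe sets (53.6%), and their correlation across probe sets, which are not independent replicates, was -0.03 (Pearson) and -0.07 (Spearman). Without the 3 arrays opposite signs made up 47.6%, with correlations of 0.16 and 0.09. The estimated effects of the 2 days were thus nearly uncorrelated across probe sets in both fits. As no estrogen effect passed on either day, this does not show that the true effects differed. Whether opposite or equal signs prevailed depended on the arrays and the fit. Leaving out control day 13 replicate 1 alone gave 44.4% opposite signs, and leaving out the 3 with RNA quality as a covariate gave 55.4%.

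**Figure D1:**
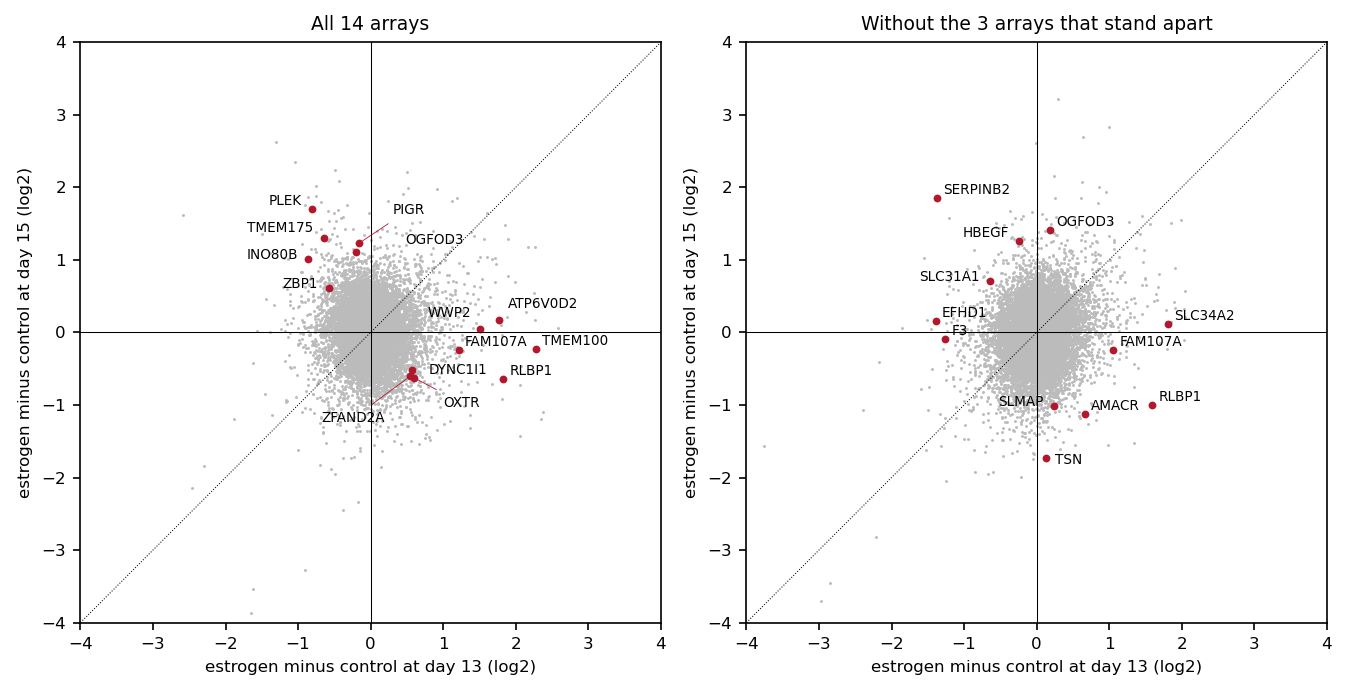
Estrogen effect (estrogen minus control, log2) at day 13 on the x axis and at day 15 on the y axis, 1 grey point per tested probe set (16754), with all 14 arrays on the left and without the 3 arrays that stand apart on the right; red points are the named genes and the dotted line marks equal effects. The cloud is round and centred near 0, with a correlation of -0.03 on the left and 0.16 on the right, and the named genes lie off the dotted line because they were chosen for that.

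Genes whose treatment-by-day difference had an unadjusted p under 0.05 were sorted by pattern, which uses the measured values, so what follows describes these gilts and tests nothing. Over the 5785 named genes, 136 (2.35%) were positive (estrogen effect higher at day 15) and 59 (1.02%) negative at that p. Without the 3 arrays these were 215 (3.72%) and 144 (2.49%). Opposite effects of at least 0.5 on each day were found in 19 genes that were lower with estrogen at day 13 and higher at day 15, and in 7 genes with the reverse order. SLA-DQB1 lay just inside that limit with effects of -0.50 and 0.76, and THADA just outside it with -0.50 and 0.61. An effect of at least 1 on a day whose groups did not overlap, with under 0.3 on the other day, was found in 4 genes at day 13 and 2 genes at day 15, higher with estrogen in each case. In the fit without the 3 arrays the corresponding counts were 12 and 4 genes with opposite effects. The counts for a single day were 7 higher and 2 lower with estrogen at day 13, and 10 higher and 7 lower at day 15. Day 15 then held 2 arrays per group, and groups of 2 fail to overlap by chance more often than groups of 3. The higher day 15 counts of that fit are therefore not read as more effects. The genes found in the same pattern in both fits were PLEK, TMEM175 and LY86 (lower, then higher), RLBP1 and DYNC1I1 (higher, then lower), FAM107A and WWP2 (day 13) and OGFOD3 (day 15). For scale, with all arrays the estrogen and control groups did not overlap in 161 of 5785 genes (2.78%) at day 13. At day 15 this held for 412 (7.12%). These shares do not apply to the fit without the 3 arrays, for which none was computed.

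Among genes lower with estrogen at day 13 and higher at day 15, the first described are those of leukocytes and innate sensing. PLEK encodes pleckstrin, a protein kinase C substrate of platelets and white blood cells. PLEK read 7.10, 7.04, 5.50 and 5.87 in the day 13 controls and 5.11, 6.24, 5.21 and 5.73 in the day 13 estrogen gilts (here and below in the order of replicate numbers). PLEK then read 6.72, 6.81 and 5.55 in the day 15 controls and 7.48, 7.64 and 9.07 in the day 15 estrogen gilts. The groups overlapped at day 13, and at day 15 every estrogen array lay above every control array. The estrogen effect on PLEK was -0.80 ± 0.47 (SE) at day 13 and 1.70 ± 0.54 at day 15, a 3.25-fold higher level, and they differed by 2.50 ± 0.72 (limma, unadjusted p = 0.00361, adjusted p = 0.99). It was 2.07 ± 0.75 without the 3 arrays.

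ZBP1, an interferon-induced sensor of Z-form nucleic acids, read 7.10, 6.24, 6.58 and 7.13 in the day 13 controls and 6.10, 6.21, 6.39 and 6.05 with estrogen. At day 15 its values were 7.17, 7.09 and 6.76 in controls and 7.50, 7.39 and 7.97 with estrogen. The day 13 estrogen arrays were the lowest of the 4 groups apart from 1 control array, and the day 15 estrogen arrays were the highest with no overlap. The effects of -0.58 ± 0.23 and 0.61 ± 0.27 differed by 1.19 ± 0.36 (limma, adjusted p = 0.99), and by 1.07 ± 0.40 without the 3 arrays. The 19 genes of this pattern also held CD40, LY86, LTB and HSH2D, named here after their values were seen. CD40, a costimulatory receptor of antigen-presenting cells, had a difference of 1.21 ± 0.49 with all arrays and 0.75 ± 0.45 without the 3. LY86, a partner of a Toll-like receptor relative on B cells and macrophages, had 1.43 ± 0.57 and 1.68 ± 0.58. HSH2D, an adaptor of lymphocytes, had 1.70 ± 0.65 and 1.36 ± 0.57. LTB encodes lymphotoxin beta, and its difference of 1.95 ± 0.80 was 0.74 ± 0.36 without the 3 arrays and 0.99 without control day 15 replicate 3 alone, which read 4.84 where the other 2 day 15 controls read 7.74 and 7.71. SLA-DQB1 and CIITA, of the same pattern, are described with antigen presentation.

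TMEM175, a lysosomal potassium channel, read 7.50, 7.29, 7.02 and 6.87 in the day 13 controls and 6.60, 7.03, 6.08 and 6.37 with estrogen. At day 15 it read 6.25, 5.09 and 4.49 in controls and 6.26, 6.26 and 7.23 with estrogen. The groups of day 15 did not overlap, but the highest control, 6.25, nearly met the lowest estrogen arrays at 6.26. The TMEM175 difference between the days was 1.95 ± 0.56, and 1.61 ± 0.57 without the 3 arrays. INO80B, a subunit of the INO80 chromatin remodeller, read 7.82, 7.64, 6.83 and 7.48 in day 13 controls, 6.06, 5.59, 7.31 and 7.36 with estrogen, 6.76, 7.05 and 5.86 in day 15 controls and 7.36, 7.75 and 7.59 with estrogen. At day 13 only replicates 1 and 2 of the estrogen gilts lay below the controls, whereas at day 15 all 3 estrogen arrays lay above them. The INO80B difference of 1.87 ± 0.61 was 1.31 ± 0.67 without the 3 arrays (limma, unadjusted p = 0.0768). The mean levels of PLEK (6.51) and TMEM175 (6.45) lay close to the dim limit of 6.35 that a probe set had to pass. PLEK passed it only with the day 15 estrogen arrays counted.

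**Figure D2:**
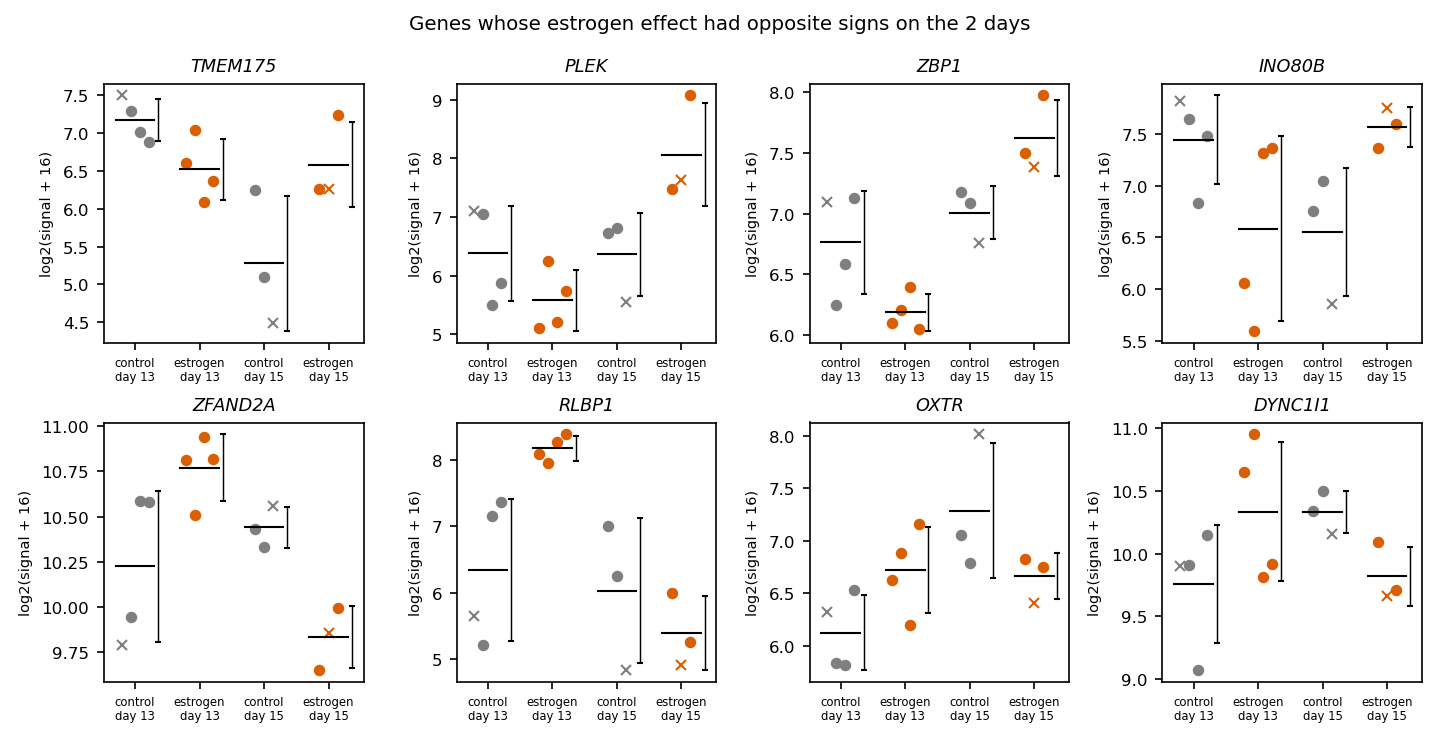
Level of 8 genes, log2(signal + 16) on each y axis, in the 4 groups on the x axis; a point is 1 gilt, a cross is a gilt on 1 of the 3 arrays that stand apart, the line is the mean and the bar the SD of all arrays of the group (4, 4, 3 and 3). In the top row estrogen gilts sit lower at day 13 and higher at day 15, as PLEK with effects of -0.80 and 1.70, and in the bottom row the order is reversed, as RLBP1 with 1.82 and -0.64.

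Of the genes higher with estrogen at day 13 and lower at day 15, RLBP1 had the largest effect at day 13 of the 4 named. It encodes cellular retinaldehyde-binding protein, a carrier of retinoids best known from the retina. RLBP1 read 5.65, 5.22, 7.15 and 7.36 in day 13 controls and 8.09, 7.94, 8.27 and 8.38 with estrogen. It read 7.0, 6.25 and 4.84 in day 15 controls and 6.0, 4.91 and 5.27 with estrogen. The day 13 groups did not overlap, while at day 15 the control array that stands apart, at 4.84, lay below all estrogen arrays and the other 2 control arrays lay above them. RLBP1 passed the dim limit of 6.35 through the day 13 estrogen gilts (mean 8.17). Its means were 6.35 in day 13 controls, 6.03 in day 15 controls and 5.39 with estrogen at day 15, so those levels are dim. The effect was 1.82 ± 0.51 (3.54-fold higher) at day 13 and -0.64 ± 0.59 at day 15. They differed by -2.47 ± 0.78 (limma, unadjusted p = 0.0072, adjusted p = 0.99). Once the 3 arrays were left out, RLBP1 did not overlap on either day (2 arrays per group at day 15), with effects of 1.59 and -1.0.

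OXTR encodes the oxytocin receptor, through which oxytocin raises prostaglandin release when corpora lutea regress. OXTR read 6.32, 5.83, 5.82 and 6.53 in day 13 controls and 6.63, 6.89, 6.20 and 7.16 with estrogen. At day 15 it read 7.05, 6.79 and 8.01 in controls and 6.83, 6.41 and 6.75 with estrogen. The groups overlapped on both days, and the highest value, 8.01, was on an array that stands apart. The effects of 0.60 ± 0.30 and -0.62 ± 0.35 differed by -1.22 ± 0.46 (limma, adjusted p = 0.99). In the fit of the other 11 arrays the day 15 effect on OXTR was -0.13 and the difference -0.79 ± 0.46.

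ZFAND2A, a stress-induced protein that binds the proteasome, read 9.79, 9.94, 10.59 and 10.58 in day 13 controls and 10.81, 10.51, 10.94 and 10.82 with estrogen. At day 15 it read 10.43, 10.33 and 10.56 in controls and 9.65, 9.86 and 10.00 with estrogen. Here the day 15 groups did not overlap and the day 13 groups did. The effects of 0.54 ± 0.19 and -0.60 ± 0.22 differed by -1.15 ± 0.30 (limma, unadjusted p = 0.00176, adjusted p = 0.99), by -0.96 ± 0.30 without the 3 arrays, and by -1.27 to -1.0 when each array was left out in turn. DYNC1I1, an intermediate chain of the dynein motor, had effects of 0.58 ± 0.28 and -0.51 ± 0.32, and its day 15 groups (10.34, 10.50 and 10.16 in controls, 10.09, 9.66 and 9.71 with estrogen) did not overlap. With RNA quality as a covariate and without the 3 arrays the DYNC1I1 difference was 0.26, of the other sign. The other members of this pattern were PDE6C, a phosphodiesterase of cone cells, ASAH1, the acid ceramidase of lysosomes, and FDPS, an enzyme of isoprenoid synthesis, with differences of -2.14 ± 0.87, -2.31 ± 1.03 and -1.67 ± 0.77. For these the fit of 11 arrays gave -0.73 ± 0.40, -0.72 ± 0.53 and -0.51 ± 0.60. Set side by side by replicate number, the 4 day 13 pairs were lower with estrogen in 4 of 4 for PLEK, ZBP1 and TMEM175, and in 3 for INO80B. They were higher in 4 of 4 for RLBP1, OXTR and ZFAND2A, and in 3 for DYNC1I1. These genes were chosen for their day 13 effects among other values, so the agreement of their pairs adds no support. All 4 pairs pointed 1 way in 732 of 5785 genes (12.7%).

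With all 14 arrays, the lowest p for the treatment-by-day difference belonged to a gene with an effect at day 13. FAM107A encodes an actin-associated protein that is induced by stress hormones. FAM107A read 8.90, 9.38, 9.72 and 9.49 in day 13 controls and 10.45, 10.84, 10.68 and 10.40 with estrogen, against 10.09, 9.45 and 9.34 in day 15 controls and 9.67, 9.10 and 9.38 with estrogen. The 4 day 13 estrogen gilts lay above every other gilt of the study, and the day 15 groups overlapped. The day 13 effect was 1.22 ± 0.22, or 2.32-fold (limma, unadjusted p = 7.52e-05, adjusted p = 0.601), the day 15 effect -0.25 ± 0.25. The difference was -1.46 ± 0.33 (unadjusted p = 0.000662, adjusted p = 0.99), -1.30 ± 0.30 without the 3 arrays, and -1.61 to -1.23 over the fits that left out 1 array each.

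ATP6V0D2, a subunit of the proton pump that acidifies vesicles, read 8.40, 8.41, 8.15 and 8.53 in day 13 controls and 9.99, 10.52, 10.56 and 9.54 with estrogen. Its day 15 values were 9.05, 7.74 and 9.28 in controls and 8.37, 9.16 and 9.05 with estrogen. All 4 day 13 estrogen gilts lay above all 10 others. The day 13 effect of 1.78 ± 0.32 was 3.43-fold, the day 15 effect 0.17 ± 0.37, and the difference -1.61 ± 0.50 (limma, adjusted p = 0.99). The ATP6V0D2 effect at day 15 was 0.31 without the 3 arrays, just over the limit for a day without effect.

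TMEM100, a membrane protein of endothelial cells that acts downstream of bone morphogenetic proteins, had the largest day 13 effect of these genes. TMEM100 read 9.05, 10.37, 9.81 and 12.05 in day 13 controls and 13.20, 12.39, 12.63 and 12.17 with estrogen, then 11.28, 8.98 and 9.84 in day 15 controls and 9.76, 8.87 and 10.78 with estrogen. The highest day 13 control, at 12.05, nearly met the lowest estrogen array, and the day 13 controls were spread widely. Its effects were 2.28 ± 0.61 (4.85-fold) and -0.23 ± 0.71, and their difference of -2.51 ± 0.93 was -1.72 ± 0.95 without the 3 arrays (limma, unadjusted p = 0.0965). WWP2, a ubiquitin ligase, read 9.75, 10.63, 11.49 and 11.38 in day 13 controls and 12.50, 12.05, 12.27 and 12.45 with estrogen. The WWP2 effects were 1.51 ± 0.42 and 0.05 ± 0.48, and a second probe set of the gene gave 1.30 and -0.08.

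With all 14 arrays, PIGR and OGFOD3 had an effect at day 15 and little at day 13. PIGR encodes the polymeric immunoglobulin receptor, which carries immunoglobulin A across epithelium into the lumen. PIGR read 8.80, 7.83, 7.88 and 8.03 in day 13 controls, 8.07, 8.14, 7.48 and 8.20 with estrogen, 8.71, 8.06 and 8.05 in day 15 controls and 9.14, 10.19 and 9.18 with estrogen. Every day 15 estrogen gilt lay above all other gilts, and the highest of them, 10.19, was on an array that stands apart. The effects were -0.16 ± 0.29 and 1.23 ± 0.34 (2.34-fold), with a difference of 1.39 ± 0.44 (limma, unadjusted p = 0.00755, adjusted p = 0.99). It was 0.71 ± 0.34 without the 3 arrays, so PIGR no longer met the rule for this pattern there. The summed signal of epithelial markers, given below, did not overlap between the groups on either day without the 3 arrays. That left 2 arrays per group at day 15, and with all 14 arrays the day 15 sums overlapped. The part of this signal in the PIGR value was not tested. OGFOD3, a member of an oxygenase family, read 8.41, 7.68 and 8.70 in day 15 controls and 9.58, 9.20 and 9.32 with estrogen. The OGFOD3 difference of 1.31 ± 0.52 was 1.22 ± 0.36 without the 3 arrays, but a second tested probe set of that gene gave 0.18 ± 0.31, so the probe sets disagreed.

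**Figure D3:**
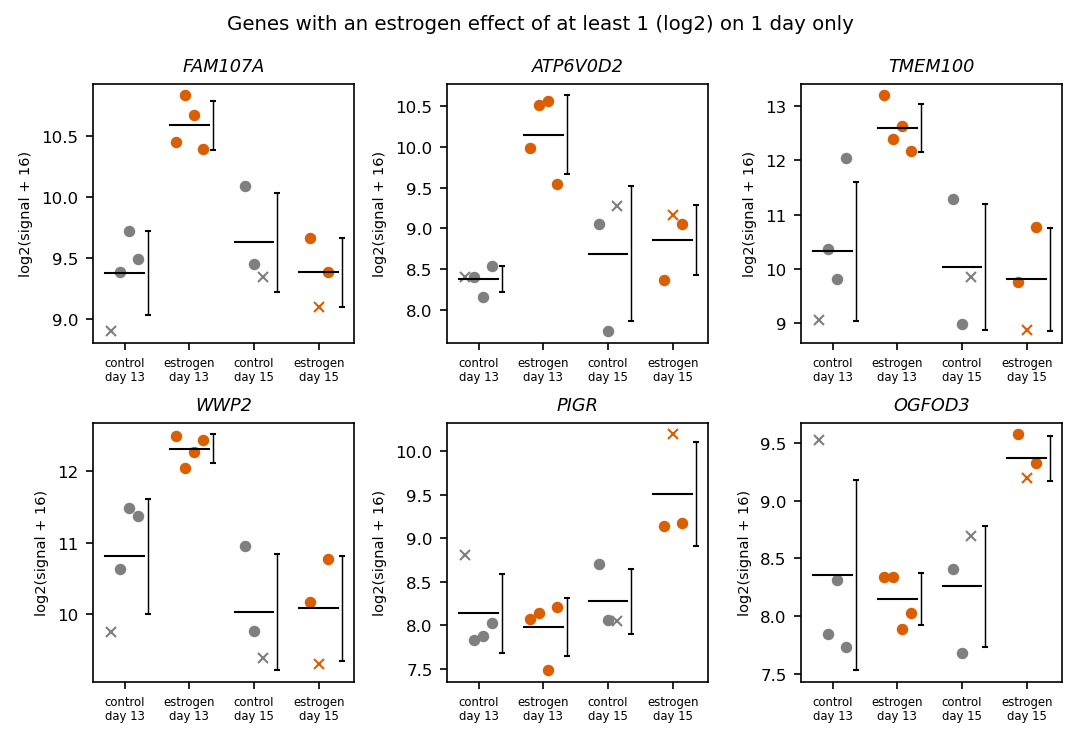
Level of 6 genes, log2(signal + 16) on each y axis, in the 4 groups on the x axis; a point is 1 gilt, a cross is a gilt on 1 of the 3 arrays that stand apart, the line is the mean and the bar the SD of all arrays of the group (4, 4, 3 and 3). FAM107A, ATP6V0D2, TMEM100 and WWP2 are high in the day 13 estrogen gilts, with day 13 effects of 1.22 to 2.28, and PIGR and OGFOD3 in the day 15 estrogen gilts, with day 15 effects of 1.23 and 1.11.

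A further 9 named genes met a pattern without the 3 arrays and not with all 14. SERPINB2, an inhibitor of urokinase plasminogen activator, had the lowest p among named genes there. SERPINB2 read 7.53, 7.75 and 7.58 in day 13 controls and 6.49, 5.75, 5.74 and 7.01 with estrogen, then 5.89 and 6.19 in day 15 controls and 7.76 and 8.02 with estrogen. The groups did not overlap on either day, in opposite directions, with only 2 arrays per group at day 15. Its effects were -1.37 and 1.85, and they differed by 3.22 ± 0.50 (limma, unadjusted p = 3.33e-05, adjusted p = 0.279). The arrays left out read 5.28 (control day 13), 10.56 (control day 15) and 6.43 (estrogen day 15), and with them the SERPINB2 difference was 0.64 ± 1.33. The size of this difference, and the sign of the day 15 effect (-0.14 with all arrays), thus rested on leaving them out.

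SLC31A1, the high-affinity copper importer, likewise read 11.55, 11.24 and 11.46 in those day 13 controls and 10.72, 10.62, 11.07 and 10.66 with estrogen. At day 15 it read 11.26 and 10.53 in controls and 11.48 and 11.72 with estrogen. With 2 arrays per group left at day 15, there was no overlap on either day without the 3 arrays, which read 9.90, 10.84 and 10.27. The SLC31A1 difference was 1.35 ± 0.30 without them (limma, adjusted p = 0.756) and 0.54 ± 0.56 with them. HBEGF, a heparin-binding growth factor of the epidermal growth factor family that the uterus makes around implantation in several species, had effects of -0.24 and 1.26 without the 3 arrays and a difference of 1.5 ± 0.46. With all arrays the HBEGF difference was 0.56 ± 0.92, and the day 15 control array that stands apart read 9.35 where the other 2 read 6.49 and 5.70.

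Lower with estrogen at day 15 and not at day 13, without the 3 arrays, were SLMAP and TSN. SLMAP, a membrane-anchored scaffold of kinase and phosphatase complexes, read 7.58 and 7.83 in day 15 controls and 6.62 and 6.76 with estrogen. Its difference was -1.24 ± 0.26 (limma, unadjusted p = 0.000521) and, with all 14 arrays, -1.14 ± 0.31, so this gene kept its size and missed the pattern with all arrays by its day 15 effect of -0.90. TSN, a nucleic acid-binding protein, had a difference of -1.86 ± 0.53 without the 3 arrays and -1.31 ± 0.71 with them. AMACR, a racemase of branched-chain fatty acid oxidation, had effects of 0.67 and -1.12, and a difference of -1.79 ± 0.71 that was -1.32 ± 0.62 with all 14.

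At day 13, again without the 3 arrays, SLC34A2 was higher with estrogen, and EFHD1 and F3 were lower. SLC34A2, a sodium-dependent phosphate transporter, read 6.11, 6.46 and 6.85 in day 13 controls and 8.59, 8.10, 8.42 and 8.02 with estrogen. These groups did not overlap, and the day 13 and day 15 effects were 1.81 and 0.11. The array left out of the day 13 controls read 13.09, and with all 14 arrays the SLC34A2 difference turned from -1.70 ± 0.45 to 1.27 ± 1.92. EFHD1, a calcium-binding protein of mitochondria, had effects of -1.39 and 0.15, and F3, the tissue factor that starts coagulation, of -1.26 and -0.09. Their differences of 1.55 ± 0.47 and 1.17 ± 0.53 were 0.94 ± 0.70 and 0.14 ± 0.64 with all arrays. The differences of SLC31A1, TSN and F3 with all arrays took the other sign with RNA quality as a covariate (-0.11, 0.077 and -0.091), as did those of SERPINB2 (-0.19) and HBEGF (-0.18) when 1 day 15 control array was left out.

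Groups of genes were described next, with 29 lists (20 on processes and 9 on cell types), each gene by its brightest probe set. Over all 5785 genes the median treatment-by-day difference was 0.08 with 3442 above 0, and without the 3 arrays 0.04 with 3120 above 0. The list medians ran from -0.37 (smooth muscle) to 1.18 (cell cycle) with all arrays and from -0.26 to 0.46 without the 3. Of the 29 medians, 15 were above 0 in both fits, 8 were below 0 in both and 6 differed in sign. No member of any list passed the adjusted threshold, and the counts given next are at an unadjusted p under 0.05. Over all 5785 genes, 2.35% were positive and 1.02% negative at that p, and 59.5% had a positive difference of any size. Without the 3 arrays these shares were 3.72%, 2.49% and 53.9%. Each count is to be read beside the shares of its own fit.

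**Figure D4:**
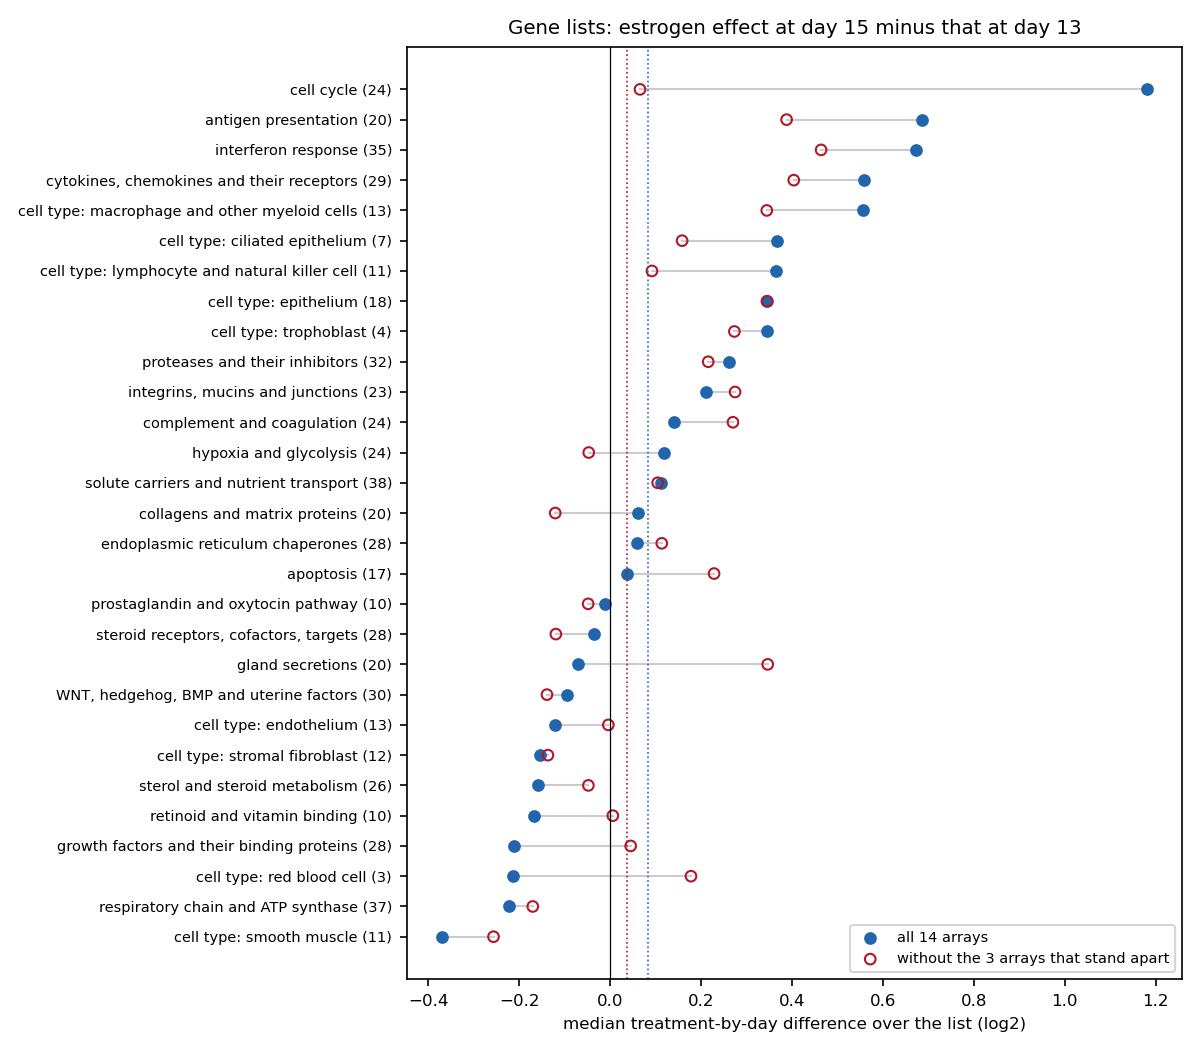
Median treatment-by-day difference (log2, x axis) of each of the 29 gene lists (y axis, number of tested genes in brackets), with all 14 arrays as filled points and without the 3 arrays that stand apart as open points; dotted lines mark the median over all 5785 genes in each fit (0.08 and 0.04). Cell cycle genes move from 1.18 to 0.07 between the fits, while interferon response genes are at 0.67 and 0.46 and respiratory chain genes at -0.22 and -0.17.

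Interferon response genes were placed above the background in both fits. Of 35 tested, 32 had a positive difference, 6 of them at the unadjusted p (against 2.35% of all genes) and 0 negative ones, and the list median was 0.67 (-0.23 at day 13 and 0.56 at day 15). The 6 were IRF7, a transcription factor of the interferon response, ZBP1, USP18, which limits interferon signalling, and the immunoproteasome genes PSMB10, PSME1 and PSME2. PSME2 read 11.64, 10.60, 10.76 and 10.79 in day 13 controls, 10.73, 10.71, 10.97 and 10.74 with estrogen, 10.88, 10.75 and 11.25 in day 15 controls and 11.40, 11.82 and 11.83 with estrogen. The day 15 estrogen arrays lay above all others but the day 13 control array that stands apart. The PSME2 difference was 0.88 ± 0.33, and 0.73 ± 0.23 without the 3 arrays. Over the list, 30 of 35 were positive without those arrays, 8 at the unadjusted p (53.9% and 3.72% of all genes in that fit). The median was 0.46 there, which came from day 15 (0.43) and not from day 13 (0.00). The mean of the list, relative to all arrays, was -0.44 to -0.22 in the day 13 estrogen gilts, -0.51 to 0.29 in their controls, -0.17 to 0.31 in day 15 controls and 0.34 to 1.06 in day 15 estrogen gilts. The top value came from estrogen day 15 replicate 3, which is not among the arrays that stand apart.

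Antigen presentation genes followed the same order. In this list 18 of 20 were positive (59.5% of all genes), 4 of them at the unadjusted p (2.35% of all genes). The median was 0.69. Without the 3 arrays 18 were positive (53.9% of all genes in that fit), with a median of 0.39. The 4 were TAPBP, which loads peptides on class I molecules, CIITA, the master regulator of class II genes, and the class II chains SLA-DQA1 and SLA-DQB1. CIITA read 7.63, 5.74, 5.43 and 5.57 in day 13 controls, 5.41, 5.40, 5.08 and 6.34 with estrogen, 7.25, 7.24 and 5.22 in day 15 controls and 7.91, 7.39 and 8.49 with estrogen. Its mean level, 6.44, lay close to the dim limit of 6.35, which it passed only with the day 15 estrogen arrays counted. The arrays that stand apart were the highest of the day 13 controls and the lowest of the day 15 controls. The CIITA difference was 1.89 ± 0.83 with them and 0.98 ± 0.51 without. For SLA-DQA1 it was 1.21 ± 0.53 and 0.73 ± 0.33. Cytokine, chemokine and receptor genes had 22 of 29 positive, 1 at the unadjusted p (LTB, against 2.35% of all genes), and medians of 0.56 and 0.40.

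Markers of macrophages and other myeloid cells moved with these lists. Of 13 tested, 11 were positive and 0 reached the unadjusted p in either direction, with medians of 0.56 and, without the 3 arrays, 0.34. The summed signal of 19 myeloid markers was 1958 to 6163 in day 13 controls, 1924 to 3814 with estrogen at day 13, 4293 to 6443 in day 15 controls and 5032 to 8268 with estrogen at day 15. MARCO, ITGAM, S100A8, S100A12, FCGR1A and SIGLEC1, included in that sum, had mean levels under the dim limit of 6.35. Lymphocyte and natural killer markers had 9 of 11 positive with all arrays and 7 of 11 without the 3, with medians of 0.37 and 0.09. Their sums overlapped among all groups (2204 to 6440, 2796 to 4416, 1467 to 5911 and 3928 to 5562 in the same order). CD2, CD3G, CD4, CD79B, IL7R, PRF1 and GNLY, included in these sums, also had mean levels under the dim limit. In whole endometrium, fewer cells of a type and less RNA per cell cannot be told apart. The part of myeloid cells in the interferon and antigen presentation values was not tested.

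Cell cycle genes had the highest median with all arrays, and it rested on arrays that stand apart. Of 24 tested, 22 were positive and 4 reached the unadjusted p, against 2.35% of all genes. The 4 were CCNB2 (a mitotic cyclin), CDC20 (an activator of the anaphase-promoting complex), AURKB (a mitotic kinase) and CENPF (a kinetochore protein). CCNB2 read 8.21, 5.45, 6.68 and 5.59 in day 13 controls, 5.27, 5.09, 6.92 and 5.65 with estrogen, 6.04, 6.27 and 5.69 in day 15 controls and 6.64, 9.20 and 7.82 with estrogen. Its highest values, 8.21 and 9.20, were both on arrays that stand apart, from a day 13 control and a day 15 estrogen gilt. The mean level of CCNB2, 6.47, also passed the dim limit of 6.35 only with the day 15 estrogen arrays counted. The CCNB2 difference was 2.64 ± 0.97 with all arrays and 1.25 ± 0.79 without the 3, and that of CENPF 2.72 ± 1.22 and 0.91 ± 1.02. The median of the list was 1.18 with all arrays and 0.07 without the 3, where 16 of 24 were positive and 0 reached the unadjusted p.

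**Figure D5:**
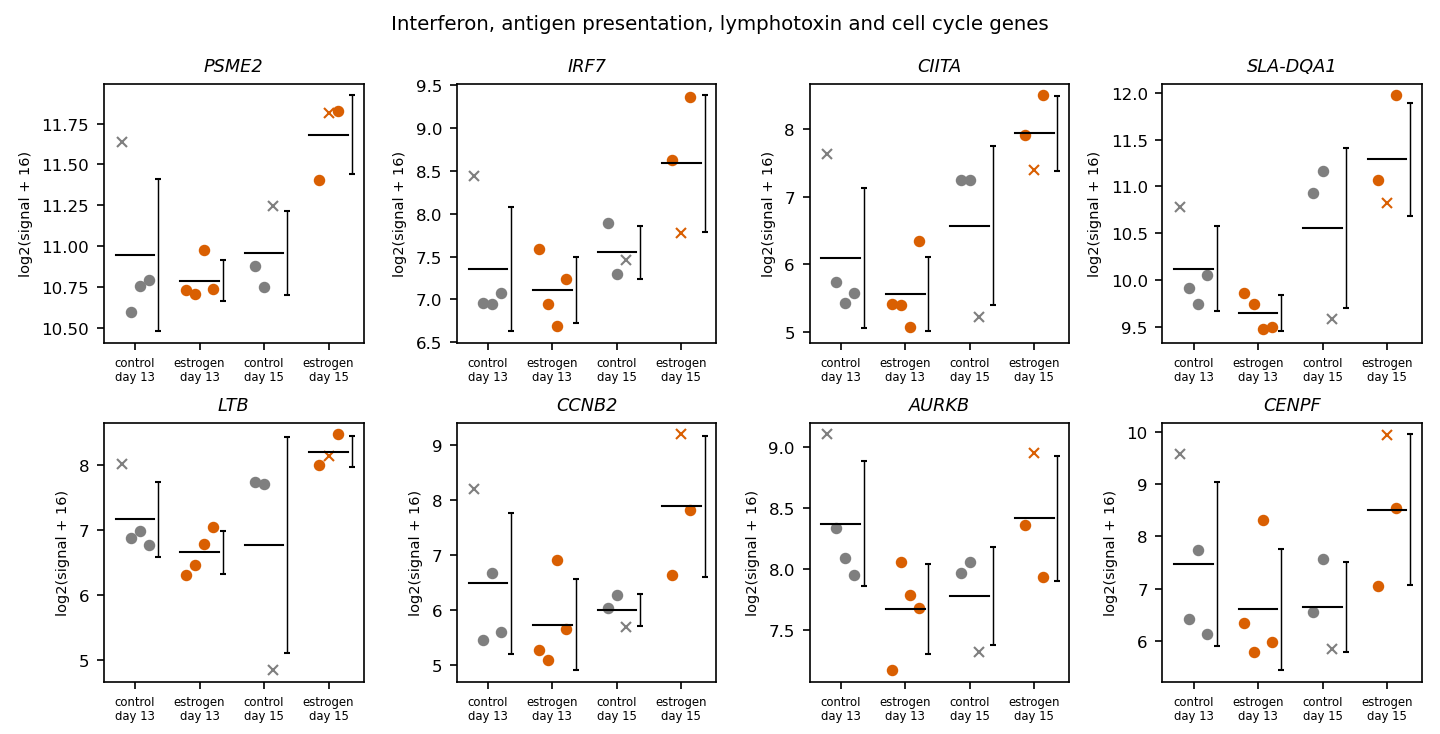
Level of 8 list members, log2(signal + 16) on each y axis, in the 4 groups on the x axis; a point is 1 gilt, a cross is a gilt on 1 of the 3 arrays that stand apart, the line is the mean and the bar the SD of all arrays of the group (4, 4, 3 and 3). PSME2, IRF7 and CIITA are highest in day 15 estrogen gilts also among the points, whereas the highest values of CCNB2 (9.20), AURKB and CENPF (9.93) are crosses.

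In the lists of steroid and prostaglandin action, 1 of 28 and 1 of 10 genes reached the unadjusted p, against 195 of 5785 genes (3.37%). Steroid receptors, their cofactors and targets had 12 of 28 positive, among them the 1 at that p (JUN, an immediate early transcription factor, 0.97 ± 0.44), and medians of -0.04 and -0.12. The estrogen receptor gene ESR1 had effects of 0.12 and 0.10 on the 2 days, and the progesterone receptor gene PGR of -0.23 and 0.50 with all arrays and 0.32 and 0.13 without the 3. In the prostaglandin and oxytocin pathway 5 of 10 were positive, with OXTR as the only one at the unadjusted p. The list held 2 at that p without the 3 arrays, against 6.21% of all genes in that fit. They were PTGES, a prostaglandin E synthase, with 1.25 ± 0.57, and ALOX5AP, a cofactor of leukotriene synthesis, with 1.45 ± 0.52. PTGS2, the inducible cyclooxygenase, had -0.39 ± 0.72 and 0.60 ± 0.56 in the fits with and without those arrays.

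Gland secretions had 10 of 20 positive and a median of -0.07, against 17 of 20 and 0.35 without the 3 arrays. Clusterin (CLU), a secreted chaperone, was the one at the unadjusted p in both fits, against 3.37% and 6.21% of all genes. CLU read 14.09, 13.91, 13.34 and 13.10 in day 13 controls and 12.78, 12.90, 12.46 and 12.98 with estrogen, and 13.86, 13.70 and 12.93 in day 15 controls and 13.75, 13.45 and 14.05 with estrogen. The day 13 groups did not overlap, and the day 15 groups did. The CLU difference was 1.08 ± 0.39 with all arrays and 0.79 ± 0.32 without the 3. The main secreted proteins of the pig uterus changed sign with the choice of arrays: uteroferrin (ACP5) had -0.24 ± 0.84 and 0.74 ± 0.38, retinol-binding protein (RBP4) -0.19 ± 0.66 and 0.63 ± 0.30. Integrins, mucins and junction genes had 15 of 23 positive and medians of 0.21 and 0.27, with 1 gene at the unadjusted p (3.37% of all genes). It was JUP, which encodes plakoglobin of cell junctions, with 0.65 ± 0.30, and 0.44 ± 0.25 without the 3 arrays. MUC1, the mucin that covers the uterine surface, had 0.86 ± 0.47 and 1.04 ± 0.38. Growth factors and their binding proteins had 12 of 28 positive and medians of -0.21 and 0.05, with 2 genes at the unadjusted p (3.37% of all genes). IGF2R, a receptor that clears insulin-like growth factor 2, had 0.76 ± 0.35 and, without the 3 arrays, 0.46 ± 0.28. IGFBP5, which binds such factors outside cells, had -0.86 ± 0.38 and -0.48 ± 0.35.

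Lists with medians below 0 in both fits included the respiratory chain and ATP synthase, with 8 of 37 positive in each fit and medians of -0.22 and -0.17, none of them at the unadjusted p. Smooth muscle markers had 1 of 11 positive and then 3 of 11, with medians of -0.37 and -0.26. Their summed signal was 15385 to 25551 in day 13 controls, 22282 to 23787 with estrogen at day 13, 18845 to 23788 in day 15 controls and 17562 to 20424 with estrogen at day 15, overlapping on both days. In the 11 arrays the day 15 sums (2 arrays per group) did not overlap, at 18845 to 21437 in controls and 17562 to 18453 with estrogen. Stromal fibroblast markers had 4 of 12 positive in both fits, with COL1A2, a chain of type I collagen, at -0.80 ± 0.31 and lower with estrogen in every day 15 array. Epithelial markers had 15 of 18 positive, 1 at the unadjusted p (JUP again, against 2.35% of all genes), and a median of 0.34 in both fits. The summed signal of the 18 was 63464 to 69395 in day 13 controls and 58579 to 62235 with estrogen, without overlap. At day 15 it was 54165 to 69690 in controls and 59374 to 65771 with estrogen, so the groups overlapped. Without the 3 arrays the day 15 sums (2 arrays per group) were 54165 to 56177 and 62922 to 65771, higher with estrogen and without overlap. Groups of 2 arrays often fail to overlap by chance, so no turn of direction is read from these sums. The part of epithelial content in the values of PIGR, CLU, MUC1, JUP and other genes was not tested. Ciliated cell markers had 7 of 7 positive with all arrays and 4 of 7 without the 3 (medians of 0.37 and 0.16). The trophoblast list had 4 of 4 and 3 of 4 (0.34 and 0.27). Over all genes 59.5% and 53.9% were positive. The trophoblast list holds KRT8, used above as an epithelial gene, and no group held conceptuses, so it is no measure of trophoblast here. TFAP2C, HAND1, CYP17A1, CYP19A1 and IFNG of that list had mean levels under the dim limit. With all arrays, endothelial markers had 5 of 13 positive (medians of -0.12 and -0.0039) and red blood cell markers 1 of 3 (-0.21 and 0.18).

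The lists of solute carriers (38 genes), proteases (32), chaperones (28) and apoptosis (17) held 1 gene each at the unadjusted p, against 3.37% of all genes. SLC3A1, a subunit of an amino acid exchanger, had -0.88 ± 0.26 (limma, unadjusted p = 0.00421), and its day 15 groups (9.26, 8.83 and 9.08 in controls, 8.23, 8.69 and 8.51 with estrogen) did not overlap. ADAM10, a membrane protease that sheds surface proteins, had -1.13 ± 0.45 and DNAJA1, a co-chaperone, -0.90 ± 0.34, each with day 15 groups that did not overlap. For ADAM10 the lowest day 15 control, 8.25, nearly met the highest estrogen array at 8.22. Day 15 groups did not overlap in 7.12% of all genes. GADD45A, a stress and DNA damage response gene, had 1.07 ± 0.35 and day 15 groups that did not overlap, though the highest control, 12.07, nearly met the lowest estrogen array at 12.10. All 4 kept their sign and an unadjusted p under 0.05 without the 3 arrays, at -0.98, -1.16, -0.69 and 0.71. The medians of the solute carrier, chaperone, protease, complement, collagen, hypoxia, apoptosis, sterol, retinoid and WNT, hedgehog and BMP lists lay between -0.17 and 0.26 with all arrays.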

How the data were processed

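Endometrial RNA of 14 gilts was measured on 14 arrays. The authors deposited linear signal intensities, 1 for each probe set of an array; the software is not given in the sources used here, and the 2% trimmed mean was 500.1 on every array, so intensities had been scaled before deposition. Of 24123 probe sets, 124 Affymetrix controls and 64 reporter controls were left out, as were the dimmest 30% (mean log2 under 6.35). Of the 24123, 10099 had 1 symbol, 198 several (not named) and 13826 none; gene identifiers of 9989 matched the reference table. limma 3.58.1 under R 4.3.3 (lmFit, eBayes with trend) fitted 4 groups together on log2(signal + 16), with Benjamini-Hochberg adjustment over 16754 probe sets at 0.05. The method was tested on simulated data, and figures were drawn with matplotlib 3.10.9.

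The genes named were, among those with an unadjusted p under 0.05 for the difference, the 4 with the lowest p per pattern and direction, and up to 2 more from the fit without the 3 arrays; members of lists at that p could be named too, and a few other list members were picked with their values in view. The question, gene lists and 3 arrays were chosen with earlier results of these data known. P-values measure the spread between gilts. Arrays with the same replicate number correlated at 0.13 to 0.28 in all 4 pairs of day 13 but at -0.38 to 0.24 in the 3 of day 15, and nothing in the labels says what a number shares, so the numbers did not pair arrays over the treatment-by-day difference. Alternatives were other filters, normalizations, pseudocounts (1 and 64), array weights, no trend, replicate blocks, RNA quality as a covariate, and arrays left out.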

Additional observations from a re-analysis of the deposited data

Results flagged for a closer look

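In 2 of 46 groups of 4 arrays checked for the named genes, 1 array lay far from the other 3; chance gives such a value in about 1 of 20 groups. SERPINB2 read 5.28 in control day 13 replicate 1, below the other day 13 controls at 7.53 to 7.75. SLC34A2 read 13.09 in the same array, above the other day 13 controls at 6.11 to 6.85. That array is among the 3 that stand apart.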

How the results depend on the processing

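Under all 27 alternatives limma called 0 probe sets for the treatment-by-day difference (lowest adjusted p 0.279), for the estrogen effect at day 13 (0.113) and for that at day 15 (0.238). The count at an unadjusted p under 0.05 was 595, and became 979 with no filter, 993 with array weights, 1070 without the 3 arrays that stand apart and 927 with RNA quality as a covariate; it ran from 432 to 1068 when each array was left out, the highest without estrogen day 15 replicate 2. The share of opposite signs was 53.6%, and became 52.6% with no filter, 48.1% with array weights, 47.6% without the 3 arrays, 58.0% with the RNA quality covariate and 55.4% with it without the 3 arrays; leaving out each array gave 44.4% (without control day 13 replicate 1) to 56.7%. The number of lists with a positive median, 17 of 29, ran from 14 to 20. The cell cycle median was 0.49 with array weights and -0.32 with the covariate and without the 3 arrays, and the interferon median 0.37 to 0.85 over its alternatives. Of 23 named genes, 16 kept the sign of their difference throughout, and 595 of 611 values had the main sign. The sign turned for SLC34A2 (-0.63 with array weights, -1.70 without the 3 arrays, -2.21 with the covariate and without them, -0.38 to 2.11 over single arrays left out), SLC31A1 (-0.11 with the covariate), TSN (0.077 with it), F3 (-0.091 with it, -0.21 to 0.61 over single arrays), DYNC1I1 (0.26 with the covariate and without the 3 arrays), SERPINB2 (-0.19 to 2.15 over single arrays) and HBEGF (-0.18 to 1.64). The cause of these changes was not tested.

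With the replicate number as a block the count at an unadjusted p under 0.05 was 586, and 636 with same-numbered arrays of a day as pairs, with 0 called by limma in both. All 4 same-numbered pairs of day 13 correlated at over 0.1 (0.13 to 0.28), and the differently numbered ones at -0.26 to 0.10. At day 15 the range was -0.38 to 0.24, and both pairs below 0 (-0.32 and -0.38) included an array that stands apart.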

Other observations

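Estrogen and control arrays did not overlap on either day, in opposite directions, in 8 of 5785 genes (0.138%), named here after their values were seen. Lower with estrogen at day 13 and higher at day 15 were NAPRT, an enzyme of NAD synthesis (effects of -0.26 and 0.67), POLA2, a subunit of DNA polymerase alpha (-0.35 and 0.53), TSC1, an inhibitor of growth signalling through mTOR (-0.44 and 0.32), MPP1, a membrane scaffold (-0.54 and 0.34), STX4, a syntaxin of vesicle fusion (-0.30 and 0.39), and KRTCAP2, a subunit of the enzyme that adds N-glycans (-0.13 and 0.22). The reverse order held for OXCT1, which starts the use of ketone bodies (0.34 and -0.62), and ATP2A2, the calcium pump of the endoplasmic reticulum (0.24 and -0.28). The adjusted p of each was 0.99 in limma.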
